A study of Mus musculus with 10 samples.

Results

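The nuclear-encoded subunits of the respiratory chain and ATP synthase were examined in ovaries of young, aged and treated aged mice. Members were the rows of the deposited gene table whose symbols begin with Nduf (followed by a, b, c, s or v and a number), Uqcr, Cox4 to Cox8 (followed by a, b or c) or Atp5, or equal Sdha to Sdhd or Cyc1. The 13 matching symbols that end in -ps were left out, which gave 88 members of 55487 genes: 40 of complex I, 4 of complex II, 9 of complex III, 17 of complex IV and 18 of complex V. Complexes were assigned by symbol, although Ndufa4 is now known as a subunit of complex IV and Cox7a2l as a factor that joins complexes III and IV. The pattern does not reach Cox4i1, Ndufab1 or Cycs, which are given separately.

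All mice were females on the C57BL/6J background, and all ovaries were taken 48 h after an injection of 10 IU of PMSG, a gonadotropin that stimulates follicle growth. The Control group held 4 ovaries of 8-week-old mice injected with saline, the Aged group 3 ovaries of mice labelled 11 months old and injected with saline, and the Aged+CF group 3 ovaries of mice labelled 11 months old that received CEFFE, a cell-free extract of fat tissue, as repeated 200 μL tail vein injections at a protein concentration of 3 μg/μL. The methods of the study give a younger age for the aged animals than the labels. RNA-seq of whole ovaries gave 15761789 to 21318254 counts per ovary. In such bulk samples, fewer cells of a type and less RNA per cell cannot be told apart.

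Mitochondria make most of their ATP by oxidative phosphorylation. Complex I takes electrons from NADH and complex II from succinate, both pass them through ubiquinone to complex III, and cytochrome c carries them on to complex IV, which reduces oxygen. Protons pumped by complexes I, III and IV drive complex V, the ATP synthase. Most subunits are encoded in the nucleus and a few in mitochondrial DNA, so each complex except II needs both genomes. In the ovary, oocytes depend on mitochondrial ATP for maturation, and luteal cells, the steroid-producing cells of the corpus luteum, are rich in mitochondria.

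Promoters of subunit genes are known for sites of the activators NRF1, GABPA (an ETS factor), YY1 and ESRRA, so the letters GCGCANGCG (NRF1), CCGGAAG (ETS), AAGATGGCG (YY1) and TCAAGGTCA (ESRRA) were searched on both strands of RefSeq promoter windows of GRCm38.p6, each 300 bases long with 250 bases before and 50 after the start. Windows were found for 68 of 87 member symbols, 73 windows in all. The NRF1 letters occurred in 21 of 73 subunit windows (28.8%) and in 6.25% of 32851 windows of all genes. The ETS letters occurred in 17 subunit windows (23.3%, against 8.86% of all), the YY1 letters in 7 (9.59%, against 1.4%) and the ESRRA letters in 2 (2.74%, against 0.423%), and 36 subunit windows held none of them. 4 upstream stretches are shown, each from 170 to 26 bases before the start and read along the gene's own strand, with motif letters in capitals. Cox6a1 (complex IV, the subunit with the highest level per length) and Atp5g3 (complex V) represent windows with a match, and Uqcr10 (complex III) and Ndufc2 (complex I), 2 of the subunits with the highest Aged to Control ratios, represent windows without one.
Cox6a1, chr5:115348984-115349128, minus strand: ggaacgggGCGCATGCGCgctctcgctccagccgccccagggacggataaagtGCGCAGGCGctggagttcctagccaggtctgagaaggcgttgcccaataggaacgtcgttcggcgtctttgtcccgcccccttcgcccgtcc
Atp5g3, chr2:73911352-73911496, minus strand: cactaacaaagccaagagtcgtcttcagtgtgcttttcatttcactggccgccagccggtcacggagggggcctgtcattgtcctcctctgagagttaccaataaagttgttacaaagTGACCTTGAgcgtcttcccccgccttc
Uqcr10, chr11:4704370-4704514, minus strand: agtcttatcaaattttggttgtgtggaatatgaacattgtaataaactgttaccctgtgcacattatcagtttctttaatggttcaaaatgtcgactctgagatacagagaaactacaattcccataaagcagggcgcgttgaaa
Ndufc2, chr7:97399833-97399977, plus strand: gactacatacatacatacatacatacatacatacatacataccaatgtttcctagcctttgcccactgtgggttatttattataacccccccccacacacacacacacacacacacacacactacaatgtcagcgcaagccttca
The capitals of Cox6a1 mark the NRF1 letters, which in the first stretch read on both strands at overlapping positions, and those of Atp5g3 mark the ESRRA letters on the opposite strand. Outside the printed stretches, the window of Cox6a1 also held the ETS letters and that of Atp5g3 the NRF1 letters. Among other subunits with high ratios, Ndufc1 held the YY1 letters and Sdhb the ETS letters. The 4 stretches therefore do not show how matches go with the ratio. In Aged against Control, the 20 tested subunits with the NRF1 letters had a median log2 fold change of 0.22, and the 46 without 0.38. For the ETS letters the order was the other way, with 0.41 in 17 and 0.3 in the 49 without. The medians with and without were 0.23 (7) and 0.33 (59) for the YY1 letters, and 0.25 (2) and 0.33 (64) for the ESRRA letters. All are given as a description with no test. A match is only a run of letters, and its absence says only that these letters are not in this window.

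Levels are given as CPM, read counts scaled to library size with TMM factors, within a gene, and as FPKM, which divides by a length, between genes. The length implied by the deposited counts and FPKM exceeds the annotated span of some genes. It was 2807 bases for Cox6b2 (chr7:4751792-4753094) and 9797 bases for Atp5g1 (chr11:96068852-96075670). Levels per length between genes are therefore approximate. 82 of the 88 members had enough counts to be tested. The other 6 were Cox7b2 and Cox8c, with no count in any ovary, and Cox6a2, Cox8b, Ndufa11b and a second Atp5o row (ENSMUSG00000116933) with few counts, at most 11 in an ovary. A count of 0 allows up to 3 counts in an ovary, which is 0.212 CPM or less. Mean levels of the tested members over all ovaries ranged from 1.36 FPKM for Atp5l, a small membrane subunit of ATP synthase, to 278 FPKM for Cox6a1. 4 members are annotated as processed pseudogenes, and one of them, Ndufb4c, had 23.7 to 55.5 CPM where the intact gene Ndufb4 had 3.23 to 7.34, so levels of members with near-identical copies are uncertain. 13 members overlap another gene on the same strand and 31 on the other strand, and the sources used here do not say whether strand was used in counting.

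Before any group comparison, 1 ovary stood apart in these genes. Aged 33 had the highest level of the 10 ovaries in 79 of 82 subunits, whereas it was highest for 21.1% of all 18956 genes tested. It lay above all 4 Control ovaries in 80 subunits (33.4% of all genes), Aged 31 in 44 (29.8%) and Aged 34 in 16 (31.8%), and Aged 34 lay below all Control ovaries in 20 (32.9%). The median log2 ratio of the subunits to their Control mean was 0.73 in Aged 33, 0.17 in Aged 31 and -0.05 in Aged 34. It was -0.05, -0.02 and 0.04 in Aged+CF 30, 32 and 34, and between -0.1 and 0.11 in the Control ovaries. The summed level of the 88 members was 7163 to 8282 CPM in Control, 8539, 12470 and 7525 CPM in Aged 31, 33 and 34, and 7445 to 7886 CPM in Aged+CF. The Aged group therefore spread over a wider range than either other group, and the values without Aged 33 are given beside the results they move.

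**Figure D1:**
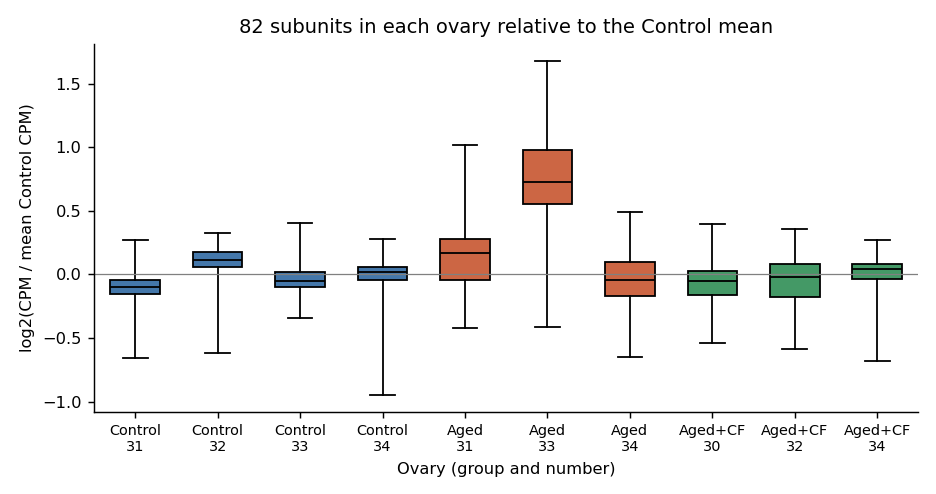
Log2 ratio of CPM to the mean Control CPM (y axis) for the 82 tested subunits in each ovary (x axis), with boxes from the lower to the upper quartile, a black line at the median and whiskers to the lowest and highest subunit. The box of Aged 33, with a median of 0.73, lies above all others, while Aged 34, with -0.05, lies among the Control and Aged+CF ovaries.

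The first comparison asked how the subunits differ between aged and young ovaries. In Aged against Control, 78 of 82 subunits had a log2 fold change above 0, with a median of 0.33, against 0.00 over all genes tested. 3 subunits rose past an adjusted p of 0.05 by edgeR's quasi-likelihood test: Sdhb, Uqcr10 and Ndufa4, and none fell. That is 3 of 82 against 7.2% of all genes rising by this rule, so the count was no higher than the background share in this fit. With DESeq2 15 of 84 subunits that received an adjusted p rose (9.5% of all genes), with a gene length correction 8 of 82 (8.13%), and with limma 1 rose and 1 fell. At an unadjusted p under 0.05, 29 subunits were higher and 0 lower (15.7% of all genes were higher). At a fold of at least 1.5 with an unadjusted p under 0.05, called the fold rule here, 7 subunits were higher (8.78% of all genes), and in 13 subunits every Aged ovary lay above every Control ovary (11.8% of all genes).

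These counts depended on single ovaries. Without Aged 33 the median was 0.10, 61 of 82 subunits were above 0 in log2 fold change, and 0 passed the fold rule, while 3 passed the adjusted p (5.67% of all genes in that fit), 10 an unadjusted p upward (15%) and 4 downward (14.2%). Without Aged 34, 43 subunits passed the adjusted p upward (12.1% of all genes), 36 passed the fold rule (10.8%), and the median was 0.53. Leaving out Aged 31 gave 5 past the adjusted p (5.51% of all genes) and 21 past the fold rule (9.49%). No subunit passed the adjusted p without Control 31, 32 or 34, and 1 did without Control 33 or any single Aged+CF ovary.

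**Figure D2:**
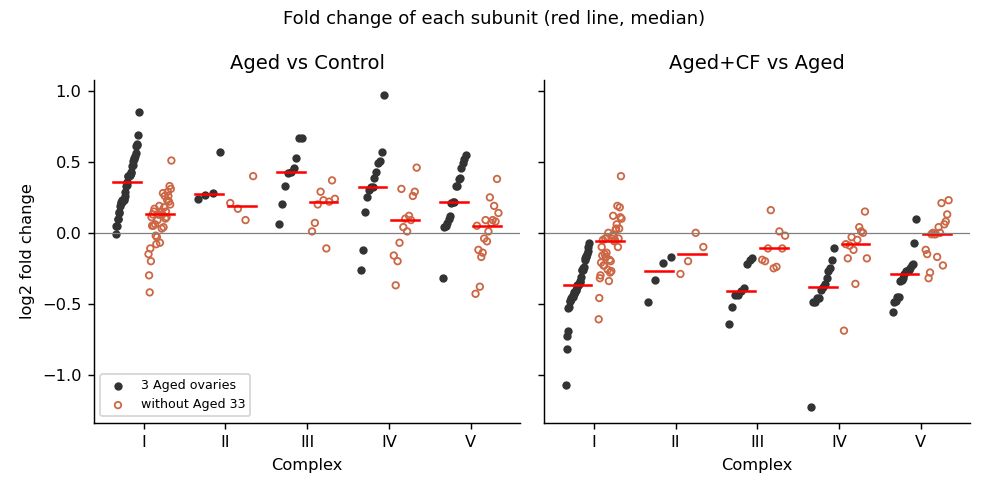
Log2 fold change (y axis) of each tested subunit by complex (x axis) for Aged against Control (left) and Aged+CF against Aged (right), with all 3 Aged ovaries (filled) and without Aged 33 (open), and red lines at the medians. The complex medians of 0.22 to 0.43 on the left were 0.05 to 0.22 without Aged 33, and those of -0.41 to -0.27 on the right were -0.15 to -0.01.

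The second comparison asked what CEFFE changed in aged ovaries. In Aged+CF against Aged, 81 of 82 subunits had a log2 fold change below 0, with a median of -0.36 against -0.02 over all genes. None passed the adjusted p in edgeR, where 0.00528% of all genes did in either direction, 1 passed in DESeq2 (Cox7a2l) and 0 in limma. At an unadjusted p under 0.05, 27 were lower (8.23% of all genes), 6 met the fold rule downward (4% of all genes), and in 14 every Aged+CF ovary lay below every Aged ovary (8.39% of all genes). This comparison uses the same 3 Aged ovaries as the first. Without Aged 33 the median was -0.07 and 0 subunits met the fold rule or the adjusted p. Without Aged 34, 8 subunits were lower past the adjusted p (2.45% of all genes): Ndufa7, Ndufc1, Ndufc2, Sdhc, Uqcrfs1, Uqcrq, Cox7a1 and Atp5g1.

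In the third comparison, Aged+CF against Control, the median log2 fold change was -0.02, with 37 subunits above and 45 below 0, and the values ran from -0.44 to 0.24. No subunit passed an unadjusted p of 0.05 in edgeR, where 14.2% of all genes did, and none passed the adjusted p (0.179% of all genes). DESeq2 gave 0 and limma 1 at the unadjusted p and both gave 0 at the adjusted p. A p that misses the threshold does not show that the groups were equal.

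Complex I oxidises NADH through 7 nuclear-encoded core subunits that carry its flavin and iron-sulfur centres, surrounded by accessory subunits. In Aged against Control the core subunits had a median log2 fold change of 0.22 (range -0.01 to 0.54) and the 32 tested accessory subunits 0.40, which became 0.17 and 0.13 without Aged 33, so the order of the 2 turned. The accessory set follows the symbols, so it holds Ndufa4, Ndufa4l2 and the processed pseudogenes Ndufb4c and Ndufs6b. 14 of 39 tested members were higher at an unadjusted p under 0.05, and 1, Ndufa4, passed the adjusted p (edgeR, with 6 in DESeq2 and 0 in limma). Ndufa4 is counted here by its symbol, although it is now known as a subunit of complex IV. Its level (ENSMUSG00000029632, chr6:11900292-11907497) was 55.2, 60.5, 58.2 and 55.6 CPM in Control 31 to 34, 75.5, 123 and 65.5 CPM in Aged 31, 33 and 34, and 63.1, 65.7 and 60.2 CPM in Aged+CF 30, 32 and 34. All 3 Aged ovaries lay above all 4 Control ovaries, and Aged 34 lay just below the highest Aged+CF ovary. The log2 fold change was 0.62 ± 0.18 (SE, adjusted p = 0.0461, edgeR) in Aged against Control and 0.33 without Aged 33 (adjusted p = 0.0483). In Aged+CF against Aged it was -0.48 ± 0.19 (adjusted p = 0.268) and -0.16 without Aged 33.

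Ndufc2 and Ndufc1, accessory subunits of the membrane arm, had the largest changes among complex I members with a mean of at least 1 CPM. This held in Aged against Control and in Aged+CF against Aged. Ndufc2 (ENSMUSG00000030647, chr7:97400003-97407802) stood at 49.3, 50.9, 49.7 and 41.5 CPM in Control, 86.5, 125 and 46.3 CPM in Aged 31, 33 and 34, and 50.1, 48.7 and 46.9 CPM in Aged+CF. 2 Aged ovaries were high, and Aged 34 lay within the Control range and below all Aged+CF ovaries. The log2 fold change of Ndufc2 was 0.85 ± 0.26 in Aged against Control (adjusted p = 0.0513) and -0.82 ± 0.28 in Aged+CF against Aged (adjusted p = 0.215), and it shares bases with Gm16053 on the same strand. Ndufc1 ran the same way, at 38.6 to 46.1 CPM in Control, 63.6, 103 and 38.9 CPM in Aged 31, 33 and 34, and 37.8 to 43.8 CPM in Aged+CF, with log2 fold changes of 0.69 ± 0.25 (adjusted p = 0.0957) and -0.73 ± 0.28 (adjusted p = 0.245). Both depended on which Aged ovary was left out. In Aged against Control, Ndufc2 was 0.51 without Aged 33 (adjusted p = 0.158) and 1.18 without Aged 34 (adjusted p = 0.00187), and Ndufc1 was 0.31 (adjusted p = 0.309) and 1.01 (adjusted p = 0.00449). In Aged+CF against Aged without Aged 33 they were -0.46 and -0.32. The lowest ratio in complex I belonged to Ndufv1, the subunit that binds NADH and the flavin, with a log2 fold change of -0.01 (adjusted p = 0.973), and -0.15 without Aged 33. Ndufa2, the complex I member with the highest level per length at 127 FPKM, had 62.3 to 72.1 CPM in Control, 76.2, 131 and 58.8 CPM in Aged 31, 33 and 34, and 61.5 to 70.1 CPM in Aged+CF, so that only Aged 31 and 33 exceeded Control. Its log2 fold change in Aged against Control was 0.40 with all ovaries and 0.03 without Aged 33.

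Complex II, succinate dehydrogenase, is both a respiratory complex and an enzyme of the TCA cycle. It is the complex built only from nuclear genes. Sdhb, its iron-sulfur subunit, had the lowest adjusted p of all 82 subunits. Sdhb (ENSMUSG00000009863, chr4:140961203-140979193) was measured at 93.1, 110, 110 and 104 CPM in Control, 123, 194 and 146 CPM in Aged 31, 33 and 34, and 110, 113 and 109 CPM in Aged+CF. Every Aged ovary lay above every ovary of both other groups. Its log2 fold change was 0.57 ± 0.14 in Aged against Control (adjusted p = 0.0242) and 0.40 without Aged 33 (adjusted p = 0.0299). In Aged+CF against Aged it was -0.49 ± 0.15 (adjusted p = 0.193) and -0.29 without Aged 33 (adjusted p = 0.28).

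The other members of complex II moved less. Sdhc, which anchors the enzyme in the membrane, was at 103 to 110 CPM in Control, 126, 149 and 110 CPM in Aged 31, 33 and 34, and 98.8 to 106 CPM in Aged+CF, with log2 fold changes of 0.27 ± 0.10 (adjusted p = 0.103) and -0.33 ± 0.11 (adjusted p = 0.215), or 0.17 and -0.20 without Aged 33. Its Aged and Aged+CF ovaries did not overlap. Sdhd, the other anchor and the complex II member with the highest level per length (79 FPKM), stood at 87.1 to 96.4 CPM in Control, 100, 140 and 89.8 CPM in Aged, and 92.9 to 96.5 CPM in Aged+CF. Without Aged 33 its log2 fold change was 0.09 in Aged against Control. The flavoprotein subunit Sdha had a log2 fold change of 0.24 (adjusted p = 0.125), and its Aged ovaries all lay above Control.

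Complex III passes electrons from ubiquinol to cytochrome c, and it had the highest median log2 fold change of the 5 complexes in Aged against Control (0.43, 9 members, 5 at an unadjusted p under 0.05 and 1 past the adjusted p in edgeR, with 2 in DESeq2 and 0 in limma). By role, the 5 small subunits had a median of 0.53, the catalytic subunits Cyc1 and Uqcrfs1 0.37, and the core proteins Uqcrc1 and Uqcrc2 0.13. Without Aged 33 these medians were 0.23, 0.24 and 0.04. Uqcr10 (ENSMUSG00000059534, chr11:4701973-4704342), a small subunit whose upstream stretch is printed above, was at 63.1, 65.8, 67.3 and 63.8 CPM in Control, 89.1, 145 and 75.6 CPM in Aged 31, 33 and 34, and 65.2, 72.1 and 78.2 CPM in Aged+CF. The Aged ovaries all exceeded Control, and Aged 34 lay below the highest Aged+CF ovary. Its log2 fold change was 0.67 ± 0.19 in Aged against Control (adjusted p = 0.04), 0.37 without Aged 33 (adjusted p = 0.0458), and -0.52 ± 0.20 in Aged+CF against Aged (adjusted p = 0.255), where it was -0.20 without Aged 33.

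Uqcrq, which sits near the cytochrome b of this complex, had the same log2 fold change as Uqcr10 with a wider spread. It was at 87.8 to 109 CPM in Control, 133, 238 and 91.4 CPM in Aged 31, 33 and 34, and 92.9 to 104 CPM in Aged+CF, which gave 0.67 ± 0.25 (adjusted p = 0.105) and -0.64 ± 0.28 (adjusted p = 0.291), or 0.24 and -0.19 without Aged 33. Aged 34 lay inside the Control range. Uqcrb stood at 45.4 to 52 CPM in Control, 57.1, 98.2 and 53.6 CPM in Aged and 47.7 to 58 CPM in Aged+CF, and its log2 fold change in Aged against Control was 0.53 ± 0.19 (adjusted p = 0.0913) and 0.22 without Aged 33. The Rieske iron-sulfur protein Uqcrfs1, at 99.2 FPKM the complex III member with the highest level per length, had 115 to 129 CPM in Control, 169, 201 and 126 CPM in Aged 31, 33 and 34, and 121 to 130 CPM in Aged+CF (log2 fold change 0.42 ± 0.14, adjusted p = 0.0623, in Aged against Control, and 0.29 without Aged 33).

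The calls of Sdhb, Uqcr10 and Ndufa4 lay close to the threshold. Over 17 alternative fits each, the adjusted p of Sdhb in Aged against Control ran from 0.00265 to 0.0676 and stayed under 0.05 in 12, that of Uqcr10 ran from 0.00619 to 0.124 with 7 under 0.05, and that of Ndufa4 ran from 0.00729 to 0.119 with 6 under 0.05. The log2 fold change of all 3 was above 0 in each of these fits.

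**Figure D3:**
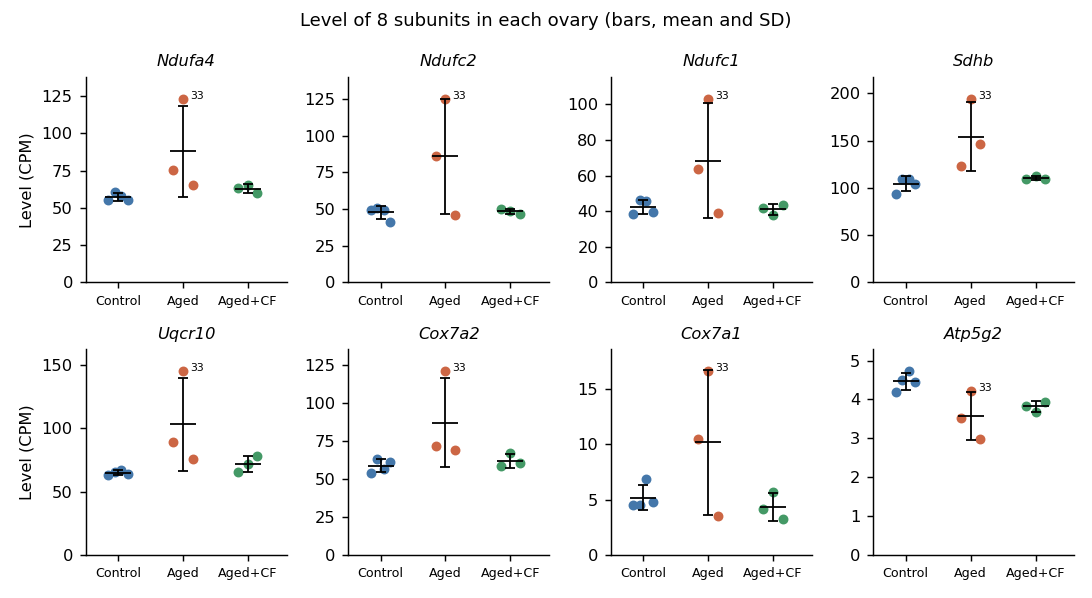
CPM (y axis, from 0) of 8 subunits in each ovary by group (x axis), with points for ovaries, black bars for the mean and SD, and the number 33 beside Aged 33. Sdhb has all 3 Aged ovaries above the other groups, Ndufc2, Ndufc1 and Cox7a1 have Aged 34 within or below the Control range, and Atp5g2 has 2 Aged ovaries below every Control ovary.

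Complex IV, cytochrome c oxidase, carries several subunits that exist as tissue isoforms. 11 of its 13 tested members had a log2 fold change above 0 in Aged against Control (median 0.32), 4 of them at an unadjusted p under 0.05. Past the adjusted p there were 0 (edgeR, with 3 in DESeq2 and 0 in limma), with Ndufa4 counted under complex I by its symbol. The widely expressed isoforms dominated. Cox6a1 averaged 272 ± 20.5 FPKM over the 4 Control ovaries, 319 ± 115 FPKM over the 3 Aged and 247 ± 14.3 FPKM over the 3 Aged+CF ovaries (± SD), whereas its heart and muscle counterpart Cox6a2 had a mean of 0.574 FPKM over all ovaries. Cox8a stood at 158 ± 10.5, 200 ± 74.7 and 158 ± 3.29 FPKM in the same order, with its muscle and brown fat counterpart Cox8b at a mean of 0.442 FPKM and Cox8c, a testis isoform, without a count. The SD of the Aged group was the widest in both, and it was Aged 33 that lay far above the rest. The level of Cox7b was 34.5 ± 2.46, 38.7 ± 10 and 32.6 ± 1.74 FPKM, and Cox7b2 had no count. Cox6b1 was at 75.3 ± 2.76, 96.9 ± 23.8 and 79.3 ± 5.53 FPKM, and Cox6b2, known from testis, was at 3.11 ± 0.812, 2.39 ± 0.559 and 2.35 ± 0.304 FPKM. The order within each pair was the same in all 3 groups. Without Aged 33 the log2 fold change in Aged against Control was 0.01 for Cox6a1, 0.09 for Cox8a, 0.04 for Cox7b and 0.26 for Cox6b1, against 0.39, 0.49, 0.32 and 0.51 with it. Ndufa4 exceeded its hypoxia-inducible relative Ndufa4l2 likewise, at a mean of 25.1 against 4.07 FPKM.

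Cox7a1 and Cox7a2 are alternative isoforms of one subunit, Cox7a1 being typical of heart, muscle and brown fat. Cox7a1 (ENSMUSG00000074218, chr7:30184144-30186078) had the largest log2 fold changes of the tested subunits in both comparisons that involve Aged, at low levels. It stood at 4.55, 4.55, 6.85 and 4.77 CPM in Control, 10.5, 16.6 and 3.47 CPM in Aged 31, 33 and 34, and 4.13, 5.69 and 3.23 CPM in Aged+CF. Aged 31 and 33 were high, while Aged 34 lay below all Control ovaries. The log2 fold change was 0.97 ± 0.43 in Aged against Control (adjusted p = 0.155) and 0.46 without Aged 33, and -1.23 ± 0.47 in Aged+CF against Aged (adjusted p = 0.253) and -0.69 without Aged 33. The summed level of the 6 brown adipocyte markers was 19.5 to 26 CPM in Control, 11.4, 14.5 and 27.5 CPM in Aged 31, 33 and 34, and 12.7 to 23.2 CPM in Aged+CF, and that of the 13 striated muscle markers was 68.5 to 119 CPM in Control, 44.3, 66.7 and 30.5 CPM in Aged 31, 33 and 34, and 36.1 to 61.7 CPM in Aged+CF. Within the Aged ovaries the muscle sum had the same order as Cox7a1, although all 3 lay below every Control ovary. The brown adipocyte sum did not have this order. Most of the muscle sum came from Tnni3, at 38.9, 60 and 21.7 CPM in Aged 31, 33 and 34. Acta1, Ckm, Myh1, Myh2 and Myh4 were below 1 CPM in every ovary. In the brown adipocyte list, Ucp1 and Elovl3 had at most 0.125 CPM in an ovary. The part of muscle and brown fat cells in the level of Cox7a1 was not tested. Cox7a2, at 51.7 FPKM over all ovaries against 8.88 FPKM for Cox7a1, had 53.9, 63, 56.8 and 61.5 CPM in Control, 71.8, 121 and 69 CPM in Aged, and 58.5, 67.4 and 60.5 CPM in Aged+CF. Its Aged ovaries lay above every ovary of both other groups, with log2 fold changes of 0.57 ± 0.18 (adjusted p = 0.0582) and -0.49 ± 0.19 (adjusted p = 0.262), or 0.29 and -0.18 without Aged 33.

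**Figure D4:**
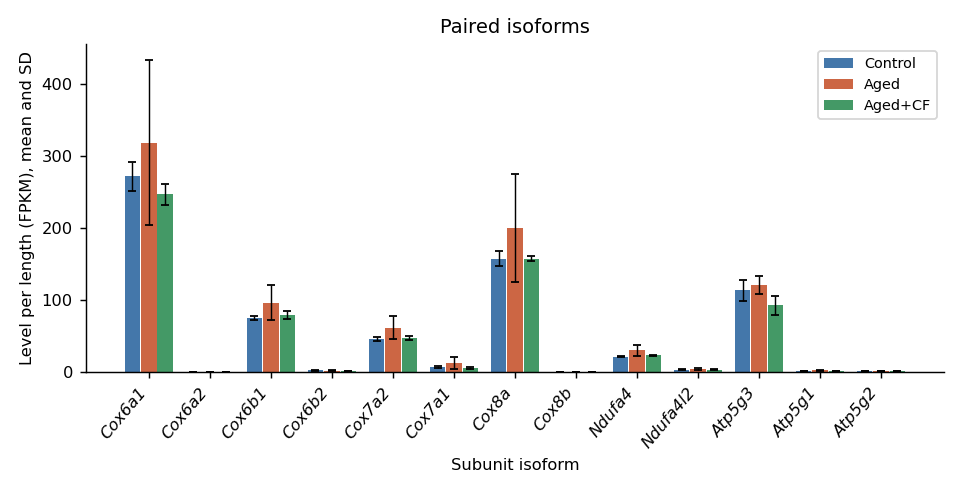
Mean level per length in FPKM (y axis, from 0) of 13 isoforms (x axis) in the 3 groups, with SD as error bars over 4 Control, 3 Aged and 3 Aged+CF ovaries. Cox6a1 (278 FPKM over all ovaries), Cox8a (171) and Atp5g3 (110) stand far above Cox6a2 (0.574), Cox8b (0.442) and Atp5g2 (1.90).

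Complex V had the lowest median log2 fold change in Aged against Control (0.22, 17 tested members), with 3 members higher at an unadjusted p under 0.05 and 0 past the adjusted p (edgeR, with 2 higher in DESeq2 and 1 lower, Atp5g2, in limma). Its catalytic head and central stalk (Atp5a1, Atp5b, Atp5c1, Atp5d and Atp5e) had a median of 0.33 and the peripheral stalk 0.21, which became 0.01 and -0.05 without Aged 33. Atp5a1, the complex V member with the highest level per length (127 FPKM), was at 559 to 708 CPM in Control, 776, 904 and 666 CPM in Aged 31, 33 and 34, and 614 to 665 CPM in Aged+CF. Its Aged ovaries lay above every Aged+CF ovary but not above every Control ovary, with log2 fold changes of 0.33 ± 0.13 (adjusted p = 0.106) and -0.29 ± 0.14 (adjusted p = 0.331), or 0.25 and -0.17 without Aged 33. The catalytic partner Atp5b had a log2 fold change of 0.05 (adjusted p = 0.85), and -0.12 without Aged 33. Atp5e, a small stalk subunit, had 106 to 126 CPM in Control, 121, 204 and 105 CPM in Aged, and 98.6 to 107 CPM in Aged+CF, so Aged 34 lay within the Aged+CF range and just below Control. Its log2 fold change in Aged against Control was 0.33 with all ovaries and 0.01 without Aged 33. The membrane subunits Atp5j2 and Atp5md had log2 fold changes of 0.49 ± 0.24 and 0.55 ± 0.26 in Aged against Control, which became 0.08 and 0.14 without Aged 33.

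Atp5g1, Atp5g2 and Atp5g3 encode the same mature c subunit, from which the rotating ring of ATP synthase is built. Atp5g3 supplied most of their RNA per length, with means of 114 ± 14.5 FPKM over the Control (SD, n = 4), 121 ± 12.8 FPKM over the Aged (n = 3) and 93.2 ± 13.5 FPKM over the Aged+CF ovaries (n = 3), against 2.14 to 2.78 FPKM for Atp5g1 and 1.59 to 2.19 for Atp5g2 as group means. In single ovaries Atp5g3 was at 264, 365, 337 and 328 CPM in Control, 343, 457 and 332 CPM in Aged, and 300, 230 and 282 CPM in Aged+CF, and every Aged ovary exceeded every Aged+CF ovary (log2 fold change -0.48 ± 0.17, adjusted p = 0.221, and -0.32 without Aged 33). Atp5g1 was at 17.7, 21.1, 21.3 and 20.8 CPM in Control, 31.1, 35.8 and 20.3 CPM in Aged, and 20.6, 22.1 and 21.3 CPM in Aged+CF, with log2 fold changes of 0.52 ± 0.17 (adjusted p = 0.0693) and -0.45 ± 0.19 (adjusted p = 0.28), or 0.38 and -0.28 without Aged 33. Here Aged 34 lay within the Control range. Atp5g2 had log2 fold changes of the other sign. It stood at 4.2, 4.49, 4.72 and 4.45 CPM in Control, 3.52, 4.23 and 2.98 CPM in Aged, and 3.84, 3.68 and 3.94 CPM in Aged+CF, and it was the only tested subunit with a log2 fold change above 0 in Aged+CF against Aged (0.10 ± 0.19, adjusted p = 0.83, and -0.03 without Aged 34). In Aged against Control it was -0.32 ± 0.18 (adjusted p = 0.252), while limma on log2(FPKM + 1) placed it past the adjusted p with -0.30.

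The other genes of the pathway were read beside the subunits. All 13 mitochondrially encoded subunits had a log2 fold change above 0 in Aged against Control, with a median of 0.76. Past the adjusted p, 8 rose (7.2% of all genes). mt-Nd2, a complex I subunit, was at 1310 to 1460 CPM in Control, 2860, 4830 and 2190 CPM in Aged 31, 33 and 34, and 1740 to 2190 CPM in Aged+CF (log2 fold change 1.23 ± 0.23, adjusted p = 0.0113, in Aged against Control). It kept the call without Aged 33, with 0.88 (adjusted p = 0.0118), as did mt-Nd3 (1.05, and 0.66 with adjusted p = 0.0143) and mt-Nd1 (0.88, and 0.51 with adjusted p = 0.034). The summed level of the 13 was 25721 to 30510 CPM in Control, 40340, 68266 and 35538 CPM in Aged 31, 33 and 34, and 29778 to 34031 CPM in Aged+CF. Here too Aged 33 was highest, but Aged 34 exceeded every Control and Aged+CF ovary. In Aged+CF against Aged, 0 of the 13 passed the adjusted p and 9 were lower at an unadjusted p under 0.05 (edgeR, 8.23% of all genes).

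Of 53 assembly factors, proteins that build the complexes without remaining in them, 9 rose past the adjusted p in Aged against Control and 0 fell. By this rule 7.2% of all genes rose. At an unadjusted p under 0.05 (edgeR), 18 were higher (15.7% of all genes) and 1 lower. Sdhaf4, which assists complex II, had a log2 fold change of 0.68 (adjusted p = 0.0334), and Tmem126a, of complex I assembly, 0.69 (adjusted p = 0.0397). Pet117, a complex IV factor, was counted once in each Control and each Aged+CF ovary and 68, 84 and 100 times in Aged 31, 33 and 34, with adjusted p = 2.71e-05 against Control and 8.11e-05 between Aged+CF and Aged. The same single count in 7 ovaries of unequal depth is unusual, how it arose was not tested, and the values of this gene are uncertain. Of 18 enzymes that form the TCA cycle or lead pyruvate into it, 6 rose (7.2% of all genes). Pcx (pyruvate carboxylase), which leads pyruvate in, rose by a log2 fold change of 1.15, and the cycle enzyme Suclg1 by 0.73. Idh2 fell by 0.71 on the log2 scale (8.29% of all genes fell past the adjusted p). Of 22 regulators of mitochondrial biogenesis, 0 rose (edgeR, 1 at an unadjusted p under 0.05) and 3 fell: Esrrb and Esrrg, orphan nuclear receptors, and Nrf1, the activator named above. Esrrb was at 3.23 to 4.43 CPM in Control, 0.662 to 0.917 CPM in Aged and 1.43 to 2.07 CPM in Aged+CF, so the groups did not overlap. Nrf1 was at 25.1 to 26.6 CPM in Control, 18.7 to 20.5 CPM in Aged and 21 to 27.1 CPM in Aged+CF (log2 fold change -0.41 ± 0.11, adjusted p = 0.0363, in Aged against Control). Ppargc1a had a log2 fold change of 0.03, Gabpa 0.06, Tfam 0.10, Yy1 -0.04 and Esrra 0.24 in the same comparison, and none of these 5 passed the adjusted p. Of 6 further tested genes of the chain that are not members (Cox4i1, Cox4i2, Cycs, Ndufab1, Atpif1 and Ndufb1-ps, the last left out for its -ps symbol), Cycs, which encodes cytochrome c, passed the adjusted p with 0.52, and neither Cox4i1, with 0.30 (adjusted p = 0.297), nor its alternative isoform Cox4i2, with 0.16 (adjusted p = 0.839), did. Without Aged 33, adjusted p-values were 0.0846 for Sdhaf4, 0.0742 for Tmem126a, 0.121 for Suclg1, 0.0602 for Esrrg, 0.052 for Nrf1 and 0.0517 for Cycs, so these 6 lost the call, while Pcx, Idh2, Esrrb and Pet117 kept it. The log2 fold changes became smaller for Sdhaf4 (0.51), Tmem126a (0.43), Suclg1 (0.46) and Cycs (0.37) but not for Nrf1 (-0.42) and Esrrg (-1.42 against -1.24).

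The tissue markers moved between ovaries too. The 10 luteal cell markers all rose past the adjusted p in Aged against Control, and their summed level was 7500 to 14499 CPM in Control, 34382, 47949 and 19682 CPM in Aged 31, 33 and 34, and 17722 to 27737 CPM in Aged+CF, so that Aged 33 was highest in these as in the subunits. Star, Cyp11a1 and Hsd3b1, defining genes of steroid synthesis, were present in every ovary. The part of luteal cells in the subunit result was not tested. Endothelial (5 of 6 genes) and erythroid markers (5 of 6) also rose past the adjusted p, where 7.2% of all genes did. So did 4 of 8 macrophage, 6 of 8 B and plasma cell and 4 of 7 T cell markers, the last 3 lists being highest in Aged 34. In Aged 31, 33 and 34 the endothelial sum was 677, 750 and 592 CPM (399 to 491 CPM in Control). The erythroid sum was 418, 638 and 265 CPM (71.8 to 112 CPM in Control). Both lists thus had the same order among the Aged ovaries as the luteal markers and the subunits, and their part was not tested either. Oocyte markers fell (13 of 17, against 8.29% of all genes). Their sums were 552 to 738 CPM in Control, 70.7 to 187 CPM in Aged and 254 to 370 CPM in Aged+CF. Of theca and stromal markers 2 of 9 fell and of striated muscle markers 1 of 13, and 0 of the granulosa cell, adipocyte, brown adipocyte, smooth muscle and oviduct markers passed the adjusted p (edgeR, 0 higher and 5 lower of 36 tested at an unadjusted p under 0.05). Single ovaries still stood out in some of these lists. The oviduct sum was 470 CPM in Control 33 and 437 CPM in Aged 34, and 30.8 to 123 CPM in the other ovaries. The theca and stromal sum was 2809 CPM in Aged 34 and 901 to 1465 CPM in the others. What these tissues contributed to the subunit levels of Aged 34 was not tested. Cytosolic ribosomal protein genes, which like many subunits have short and abundant mRNAs, had a median log2 ratio to Control of 0.41 in Aged 33, -0.27 in Aged 31 and -0.34 in Aged 34. Their part in the result was not tested.

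**Figure D5:**
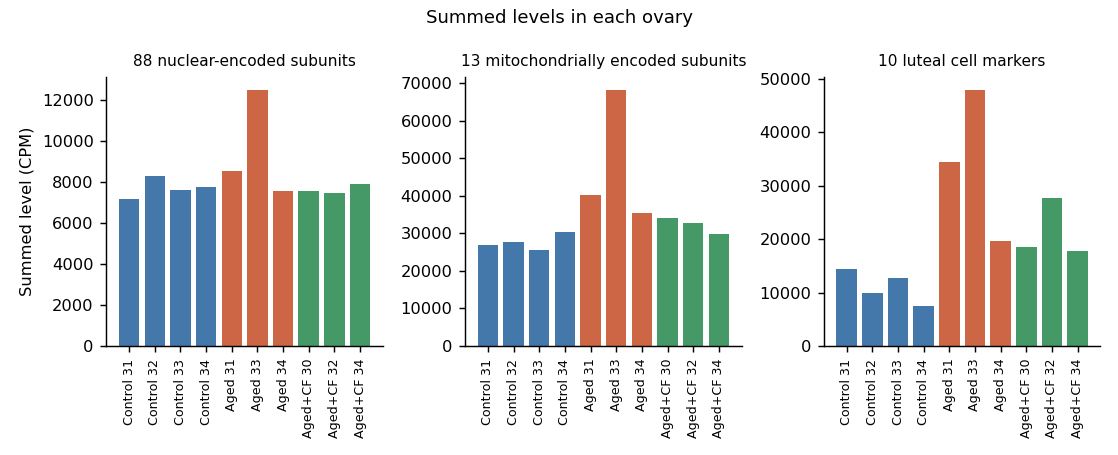
Summed CPM (y axes, from 0, each panel with its own scale) in each ovary (x axes) of the 88 nuclear-encoded subunits, the 13 mitochondrially encoded subunits and the 10 luteal cell markers, with bars coloured by group. Aged 33 is highest in each panel, at 12470, 68266 and 47949 CPM, and Aged 34 is within the Control range in the first panel and above it in the others.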

How the data were processed

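10 whole mouse ovaries were profiled by RNA-seq. The submitters' processing notes name TopHat, Cufflinks 2.1.1 and GRCm38.p4; the counting tool and its strand setting are not given in the sources used here. The authors deposited raw read counts and FPKM values for 55487 genes in each ovary. Positions come from GENCODE M21 (GRCm38), in which all 88 members were found.

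Counts of all 10 ovaries were fitted in 1 model with edgeR 4.0.16 in R 4.3.3 (filterByExpr, TMM, robust quasi-likelihood F test, Benjamini-Hochberg adjustment over 18956 genes). The fold rule was a fold of at least 1.5 with an unadjusted p under 0.05; the study names the same fold with an adjusted p in its methods and with a p in its results. The pipeline was tested on simulated data. Alternatives were no filter on low counts, DESeq2 size factors, only the compared groups, the replicate number as a block, a gene length correction, DESeq2 1.42.0, limma 3.58.1 on log2(FPKM + 1), and leaving out each ovary. Each ovary is labelled as a separate sample, and no pair of ovaries agreed within sampling noise. The study's methods speak of 3 biological replicates. Whether ovaries came from separate mice is not spelled out in the sources used here. The p-values therefore measure only the spread between these samples, which may be technical in part. Precision is limited by the 3 or 4 ovaries per group and, for low genes, by depth. FPKM was used only for levels between genes and for limma.

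Members and lists (pathway lists and 14 marker lists) were chosen with earlier results of these data known. Named genes were, per complex, the 3 largest changes in Aged against Control and the 2 largest in Aged+CF against Aged among members of at least 1 CPM, the highest FPKM, members past the adjusted p and the fold, and isoform pairs, plus up to 3 called genes per pathway list and fixed regulators. Other genes named (Ndufv1, Ndufb4c, Ndufa7, Cox7a2l and others beside a count or a role) and the roles were chosen after values were seen.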

Additional observations from a re-analysis of the deposited data

Results flagged for a closer look

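Only the Control group, with 4 ovaries, was large enough for a check of single outlying ovaries. Of 34 values checked, 3 held a Control ovary far from the others relative to the group's range, where chance gives about 1 in 20. Ndufc2 was at 41.5 CPM in Control 34, below the other 3 Control ovaries. Cox7a1 was at 6.85 CPM in Control 33, above the other 3. Atp5g1 was at 17.7 CPM in Control 31, below the other 3.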

How the results depend on the processing

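In Aged against Control, the 3 subunits past the adjusted p became 5 with DESeq2 size factors (7.97% of all genes), 0 with only the compared groups (4.16%), 8 with the gene length correction (8.13%) and 15 with DESeq2's test (9.5%), and the 7 subunits past the fold rule became 11 with DESeq2's test and 1 with limma. With the replicate block, they became 0 (0.301% of all genes) and 2, the medians were 0.31, -0.26 and 0.06 in the 3 comparisons, and in Aged+CF against Aged 0 subunits met the fold rule. Ovaries that share a number did not deviate together (correlations from -0.18 to 0.15), so the numbers were not taken as pairs. In Aged+CF against Aged, the 6 subunits meeting the fold rule became 2 with only the compared groups and 1 with limma, and DESeq2's test placed 1 past the adjusted p. Leaving out each ovary in turn gave 0 to 43 subunits past the adjusted p, 0 to 36 past the fold rule and a median of 0.10 to 0.53 in Aged against Control, and 0 to 8, 0 to 30 and -0.53 to -0.07 in Aged+CF against Aged. The lowest medians in size came without Aged 33 and the highest counts without Aged 34. These fits have fewer ovaries, and otherwise the cause was not tested. Leaving out members annotated as pseudogenes, an alternative chosen after seeing the data, kept each count within 1.5 times its value. The sign of a called log2 fold change of a named subunit did not change under any alternative run.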

Other observations

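Among the 82 tested subunits, genes with a shorter length, as implied by the deposited counts and FPKM, had higher ratios in Aged against Control. The 41 subunits at or below the median length of 2611 bases had a median log2 fold change of 0.42, and the 41 longer ones 0.24. Spearman's rho between gene length and log2 fold change was -0.33 over the 82 subunits, which share the same 7 ovaries, and -0.04 without Aged 33. Without Aged 33 the medians were 0.13 and 0.09.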
